A study of Rattus norvegicus with 30 samples.

Results

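Rat bone marrow mesenchymal stem cells (BMSCs) after 72 h in chondrogenic medium were compared with undifferentiated BMSCs at 0 h, using 3 samples of each out of 30 samples in the series. Both groups came from the bone marrow of 3-week-old female Sprague Dawley rats, for which no genetic change is stated. The cells were grown in DMEM with fetal bovine serum, seeded at passage 2 in flat plates and then either collected (0 h, labelled CON) or kept in Promocell chondrogenic differentiation medium (labelled CH). Each sample pooled 3 cultures, so the samples are separate pools, but the labels do not say whether they came from separate animals. The p-values measure only the spread between samples, estimated over all 30 samples of the series. Further groups of 3 samples each were used where a result needed them, namely 3 and 12 h of chondrogenesis, and 72 h of osteogenesis (OS) and adipogenesis (AD), induced with the Promocell media for those lineages. No uninduced cells collected after 0 h were used here, so the medium and the time in culture cannot be told apart.

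BMSCs are stromal cells that can form cartilage, bone and fat. In chondrogenesis, signals of the transforming growth factor beta (TGF-beta) family raise the transcription factor (TF) Sox9, which with other TFs switches on the genes of cartilage matrix, such as the collagens of types II, IX and XI, aggrecan and cartilage oligomeric matrix protein. Chondrogenic media commonly hold a TGF-beta family factor and a glucocorticoid, and both have well known target genes of their own. The composition of the medium was not given in the sources used here.

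The level of a gene is given in CPM, the reads of the gene scaled to a common sample total with no correction for gene length, so levels are compared between samples and not between genes. The reads behind each value could be recovered, and the 3 samples of 72 h had the lowest totals of the series, 3899609 to 4523111 reads against 6594559 to 7179051 at 0 h. The listed genes held 53.7 to 54.2% of the total at 0 h and 60.5 to 67.7% at 72 h. The 10 most abundant gene names took 9.58 to 9.77% of the total at 0 h and 13.6 to 15.5% at 72 h. A level of 3 reads, 0.418 to 0.455 CPM at 0 h and 0.663 to 0.769 CPM at 72 h, was taken as the smallest detectable signal, and intervals and limits of this kind cover counting error only. Of 24 genes that nearly every cell expresses at a high level, chosen after their values were seen, 13 were under 10 CPM in all 6 samples (among them Actb, Vim, Fth1 and Ftl1) and 5 had at most 3 reads in each, whereas 10 were at 100 CPM or more in all 6. A value at or near 0 therefore cannot be read as absence of the transcript, and the cause of such values was not tested.

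The cells carried several markers of their label. Of 8 stromal markers in the files, Thy1, Itgb1 and Cd44 were abundant, with the summed level of the 8 between 16086 and 16893 CPM at 0 h and between 9107 and 9584 CPM at 72 h, while Eng, Vcam1 and Twist1 stayed at 3 reads or fewer in all 6 samples and Pdgfra and Pdgfrb at 12 or fewer. The leukocyte marker Csf1r had 0 to 3 reads at 0 h and 0 reads at 72 h, and the 3 endothelial markers found (Kdr, Tek and Vwf) summed to 3.34 to 4.74 CPM and 1.99 to 3.33 CPM. The 8 chondrocyte markers summed to 47.5 to 52.2 CPM at 0 h and 1173 to 1517 CPM at 72 h, almost all of it Sox9. Within that list Acan and Hapln1 were listed at 0 in all 6 samples, Col2a1 had 0 reads at 0 h and 3, 0 and 1 reads at 72 h, and Col9a1 had 0 to 1 and 2 to 6 reads. In bulk samples a change in the share of a cell type and a change in RNA per cell cannot be told apart.

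Testing covered the 4363 genes that reached 1 CPM in 3 or more of the 30 samples, and used limma with log2(CPM + 1) as the scale. A gene was called a differentially expressed gene (DEG) when its log2 fold change was 1 or more in either direction and its limma p, adjusted after Benjamini and Hochberg, was under 0.05. At 72 h after induction 785 genes (18.0%) were DEGs, of which 507 (11.6%) were upregulated and 278 (6.37%) were downregulated. After rescaling that gave the listed genes an equal sum in every sample, the split was 430 higher and 381 lower, and the median log2 fold change of all genes moved from 0.01 to -0.13. The upregulated genes had a median log2 fold change of 1.58 and the downregulated genes one of -1.47. Changes of 4 or more on this scale were found for 31 upregulated and 11 downregulated genes. The 3 samples of one group did not overlap with the 3 of the other in 781 of the 785 DEGs, as against 51.1% of all tested genes. The DEGs were called on the same values, so this share is no separate support. The log2(CPM + 1) scale understates the change of low genes, and 147 upregulated genes had at most 3 reads in every 0 h sample, 60 of them with none, while 73 downregulated genes had at most 3 reads in every 72 h sample, 18 of them with none. Such upregulated genes passed the filter only through other groups, so counts of gene lists that hold them are no support for a change of the list. Below, values after ± are SDs over 3 samples for levels and SEs of the limma model for log2 fold changes, and every adjusted p comes from that model over all 4363 genes. The model pools the spread within all groups of the series, so an SE can exceed the spread of the groups compared.

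**Figure D1:**
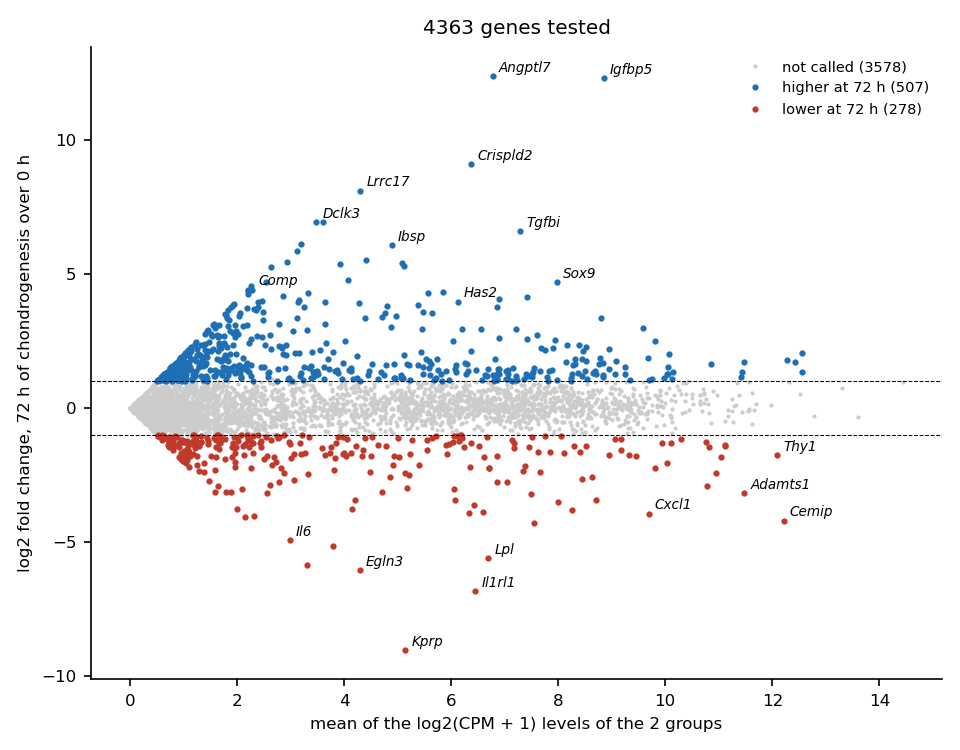
Log2 fold change of each of the 4363 tested genes after 72 h of chondrogenesis over 0 h (vertical axis) against the mean of its log2(CPM + 1) levels in both groups (horizontal axis). Blue points are the 507 higher and red points the 278 lower genes, grey points are the others, and dashed lines stand at 1 and -1. Angptl7 and Igfbp5 lie highest and Kprp lowest.

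Angptl7, a secreted angiopoietin-like protein, had the largest rise. It stood at 0.430, 0.279 and 0.758 CPM in the 0 h samples and at 9685, 7289 and 7432 CPM in the 72 h samples (log2 fold change 12.42 ± 0.56, limma adjusted p = 2.19e-17). Igfbp5, which binds insulin-like growth factors, went from 3.87, 5.99 and 6.67 CPM to 33332, 32936 and 31633 CPM (12.32 ± 0.74, adjusted p = 1.55e-14) and was the most abundant name in 2 of the 3 samples of 72 h. Both genes were low in undifferentiated cells and high at 72 h, with no overlap between groups. Crispld2, a secreted protein known to respond to glucocorticoids, measured 2.15, 2.79 and 2.58 CPM at 0 h and 2188, 1945 and 1738 CPM at 72 h (9.12 ± 0.23, adjusted p = 2.92e-23). Tgfbi, a matrix protein named for its induction by TGF-beta, measured 14.5, 13.7 and 16.2 CPM and 1616, 1559 and 1485 CPM (6.62 ± 0.30, adjusted p = 2.79e-17). Ibsp, the bone sialoprotein gene, measured 2.86, 2.65 and 2.12 CPM and 318, 201 and 221 CPM (6.10 ± 0.28, adjusted p = 4.28e-17). In each of these genes the lowest sample of 72 h was far above the highest sample of 0 h.

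Several other large rises started from few reads at 0 h. Dclk3, a kinase of the doublecortin-like family, had no read at 0 h and 146, 116 and 106 CPM at 72 h, which is at least 270.4-fold higher when 3 reads in each 0 h library are taken as the limit. Lrrc17, a secreted leucine-rich repeat protein, had 0.573, 0 and 0 CPM and 348, 296 and 328 CPM, a ratio of 1676 with a 95% counting interval of 654 to 6154. For Postn, the matrix protein periostin, the values were 0.143, 0.139 and 0.152 CPM and 48.0, 46.9 and 54.5 CPM, a ratio of 345 (117 to 1677). The wide intervals come from the few reads at 0 h, while the 72 h samples of each gene lay close together. The metalloprotease Adamts17 (ratio 776, 214 to 6416), the serotonin receptor Htr2b (454, 155 to 2206) and the uncharacterised LOC102547056 (1397, 386 to 11543) rose from similarly few reads. Among genes with more reads at 0 h, Sbsn (suprabasin) rose by 5.52, Plxdc2 by 5.42, Nptx1 (neuronal pentraxin) by 5.36 and Lama1 (a laminin chain) by 5.31 on the log2 scale.

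The falls were led by Kprp, a gene known from keratinocytes. It measured 772, 767 and 811 CPM at 0 h and 0.256, 1.55 and 0 CPM at 72 h, a ratio of 1264 (641 to 2928) in favour of 0 h. Il1rl1, the receptor of interleukin-33, measured 835, 859 and 1099.5 CPM and 7.95, 7.74 and 5.78 CPM (-6.84 ± 0.36, adjusted p = 8.30e-16). Egln3, a prolyl hydroxylase that marks hypoxia-inducible factors for degradation, measured 157, 150.3 and 168 CPM and 2.05, 1.33 and 0.889 CPM (-6.07 ± 0.23, adjusted p = 2.74e-19). The 3 genes were well expressed in each undifferentiated sample and low in each differentiated one. Lpl, the lipoprotein lipase, measured 721, 663 and 777 CPM and 13.6, 13.5 and 14.7 CPM (-5.59 ± 0.32, adjusted p = 5.89e-15). Ramp3, a partner of calcitonin-family receptors, measured 832, 787 and 887 CPM and 39.2, 39.1 and 45.1 CPM (-4.31 ± 0.31, adjusted p = 1.07e-12). Further large falls were those of the chemokine receptor Ccr1 (ratio 239, 93.0 to 877), the carbonic anhydrase Car4 (81.8, 27.8 to 398), the ectonucleotidase Enpp3 (log2 fold change -3.92) and Nsg1 (-3.90).

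**Figure D2:**
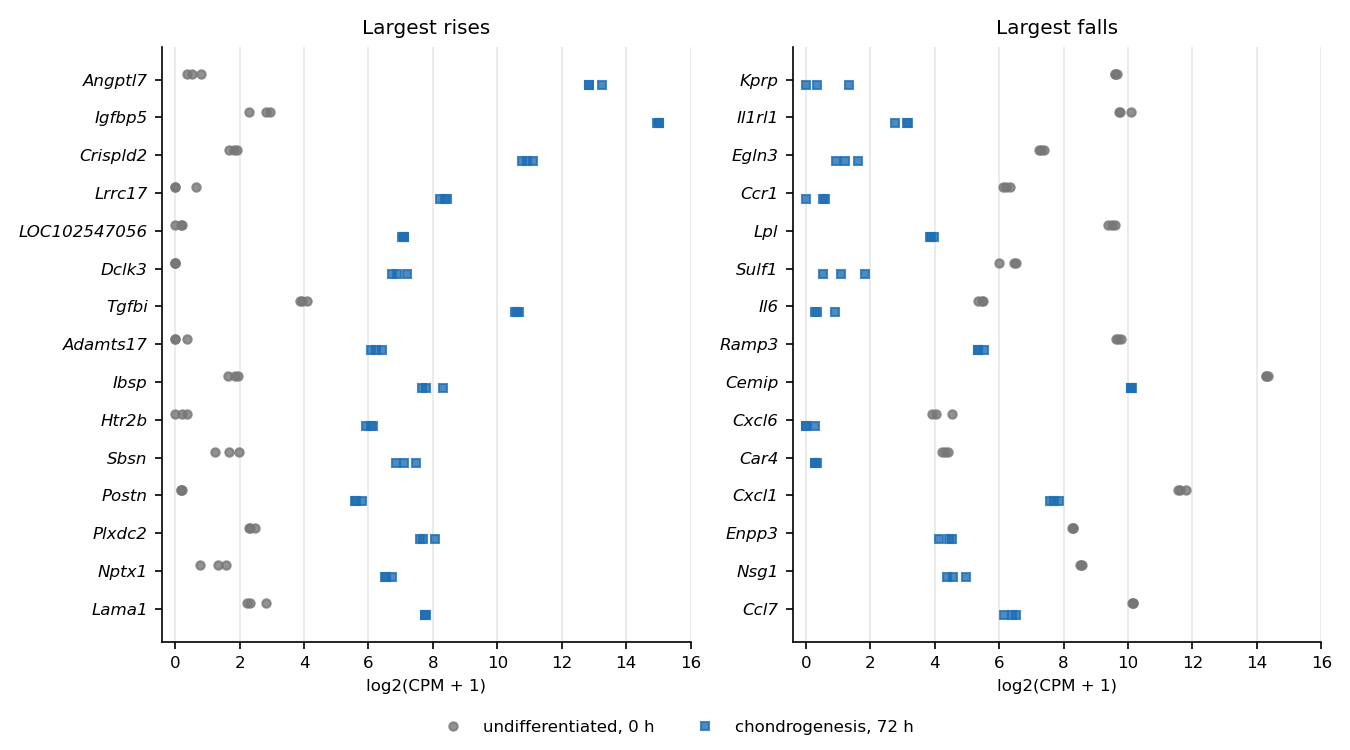
Levels of the 15 genes with the largest rises (left) and the 15 with the largest falls (right), as log2(CPM + 1) on the horizontal axes, with 1 point per sample, grey circles for 0 h and blue squares for 72 h of chondrogenesis. The genes were taken from DEGs whose groups did not overlap, so the 3 points of one group lie apart from the 3 of the other by selection.

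Of the 10 most abundant downregulated genes, Cemip, which takes part in the breakdown of hyaluronan, fell most. It was the most abundant name at 0 h with 20866, 20136 and 20114 CPM and measured 1126, 1082 and 1096 CPM at 72 h (-4.21 ± 0.13, adjusted p = 2.61e-21). Adamts1, an aggrecan- and versican-cleaving protease, measured 8703, 8679 and 8337 CPM and 954, 967 and 923 CPM (-3.18 ± 0.14, adjusted p = 1.20e-17). Thy1 (CD90), a surface antigen used to define BMSCs, measured 8139.7, 7736 and 8279.7 CPM and 2579, 2317 and 2243 CPM (-1.76 ± 0.11, adjusted p = 8.55e-14). These genes fell without reaching low levels. The other genes of that group were S100a4 (-2.90), the semaphorin Sema3c (-2.42), the C1 inhibitor gene Serping1 (-1.82), the guanine deaminase Gda (-1.40), the actin bundler Pls3 (-1.36), the small GTPase Rnd3 (-1.46) and the chemokine Cxcl1 (-3.94). On the upregulated side, Mgp, the matrix Gla protein known to restrain calcification, measured 2749.6, 2604 and 2603 CPM at 0 h and 10999.6, 8740.2 and 7896 CPM at 72 h (1.78 ± 0.23, adjusted p = 1.84e-07). Ptgfrn (log2 fold change 2.06), the desaturase Scd2 (1.73), the basement membrane linker Nid1 (1.34), Serpinf1 (1.70), the small heat shock protein Hspb7 (1.33), the reticular calcium binder Rcn1 (1.14) and Olfml3 (1.63) were also upregulated. Under quantile normalization Nid1 (0.55) and Rcn1 (0.88), and under rescaling to the listed genes Rcn1 (0.90), did not reach a log2 fold change of 1.

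Of 20 TFs linked to cartilage formation found in the files, 13 were tested, and 8 of them were upregulated and 2 downregulated, as against 11.6% and 6.37% of all tested genes. Their median log2 fold change was 1.11, and that of all tested genes 0.01. Except for Sox11, the called members are also among the TFs that the study names for 72 h of chondrogenesis from these samples. Runx3, Gli1 and Gbx2 had too few reads at 0 h to pass the filter there. The share is therefore no independent evidence. Sox9, the TF that specifies chondrocytes, measured 46.6, 46.8 and 50.8 CPM at 0 h and 1489, 1256 and 1152 CPM at 72 h (4.72 ± 0.14, adjusted p = 1.74e-21). Creb3l1, an endoplasmic reticulum (ER) anchored TF of secretory cells, measured 263, 278 and 277 CPM and 2718, 1883 and 1935 CPM (2.97 ± 0.18, adjusted p = 1.11e-14). Scx (scleraxis), a TF of tendon progenitors, measured 3.29, 1.95 and 2.58 CPM and 26.7, 24.3 and 27.6 CPM (2.93 ± 0.33, adjusted p = 1.28e-08). The groups did not overlap in these 3 genes. Epas1, which encodes hypoxia-inducible factor 2 alpha, rose by 2.50 on the log2 scale and Sox11 by 1.11, the latter from 0.83 to 2.98 CPM and not under quantile normalization (0.99) or rescaling (0.97). Runx3 had 0 to 2 reads per sample at 0 h and 1.03, 4.42 and 3.11 CPM at 72 h (ratio 20.3, 6.46 to 103), and the hedgehog effector Gli1 had 0 to 2 reads and 0.769, 3.10 and 3.78 CPM (ratio 27.3, 7.0 to 235). Gbx2 had no read at 0 h and 2.31, 0.221 and 1.11 CPM at 72 h, and without replicate 1 of 72 h its log2 fold change was 0.68 and it was not called, nor after rescaling (0.99). On the log2 scale the homeobox TF Dlx3 fell by 1.80 ± 0.30 and Nfia by 1.36 ± 0.27. Sox6 had at most 2 reads in any of the 6 samples.

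Of the 34 cartilage matrix genes listed, 25 were in the files and 8 passed the filter, and 6 of these 8 were upregulated (11.6% of all tested genes were), with a median of 2.13. Comp, cartilage oligomeric matrix protein, had 0 to 1 reads at 0 h and 87 to 98 reads at 72 h (25.1, 20.3 and 19.3 CPM), a ratio of 445 with a counting interval of 79.2 to 17639. Col9a2, a chain of type IX collagen, measured 1.0, 1.95 and 0.758 CPM and 46.4, 32.1 and 24.0 CPM (3.96 ± 0.34, adjusted p = 6.72e-11). Matn4, a matrilin, measured 1.0, 0.557 and 0 CPM and 14.4, 9.95 and 9.78 CPM (3.06 ± 0.28, adjusted p = 2.15e-10). These matrix genes were low in undifferentiated cells and moderate at 72 h, with no overlap. A second type IX chain, Col9a3, had 0 to 3 and 16 to 29 reads (ratio 33.7, 11 to 168). Susd5 had no read at 0 h and 8 to 19 at 72 h, at least 6.27-fold higher at a limit of 3 reads per 0 h library. Chadl, a chondroadherin-like gene, was the sixth, with means of 0.0477 and 2.80 CPM. Col11a2 (-0.33) and Prg4 (0.18) did not pass the test. The filter takes genes at 1 CPM in any 3 of the 30 samples, so a member with reads in 1 group only had to be high there and its count is no support for a change of the list, and the 17 members left out were too low to be tested.

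The same filter left 7 tendon and ligament genes, 5 of them upregulated (11.6% of all tested genes were) with a median of 2.93. They were Angptl7, Comp and Scx, described above, Fibin, a secreted growth factor related protein, and Tnmd (tenomodulin). Fibin measured 11.3, 10 and 14.4 CPM at 0 h and 275, 261 and 235 CPM at 72 h (4.33 ± 0.23, adjusted p = 1.60e-15), whereas Tnmd had no read at 0 h and 5 to 9 at 72 h.

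**Figure D3:**
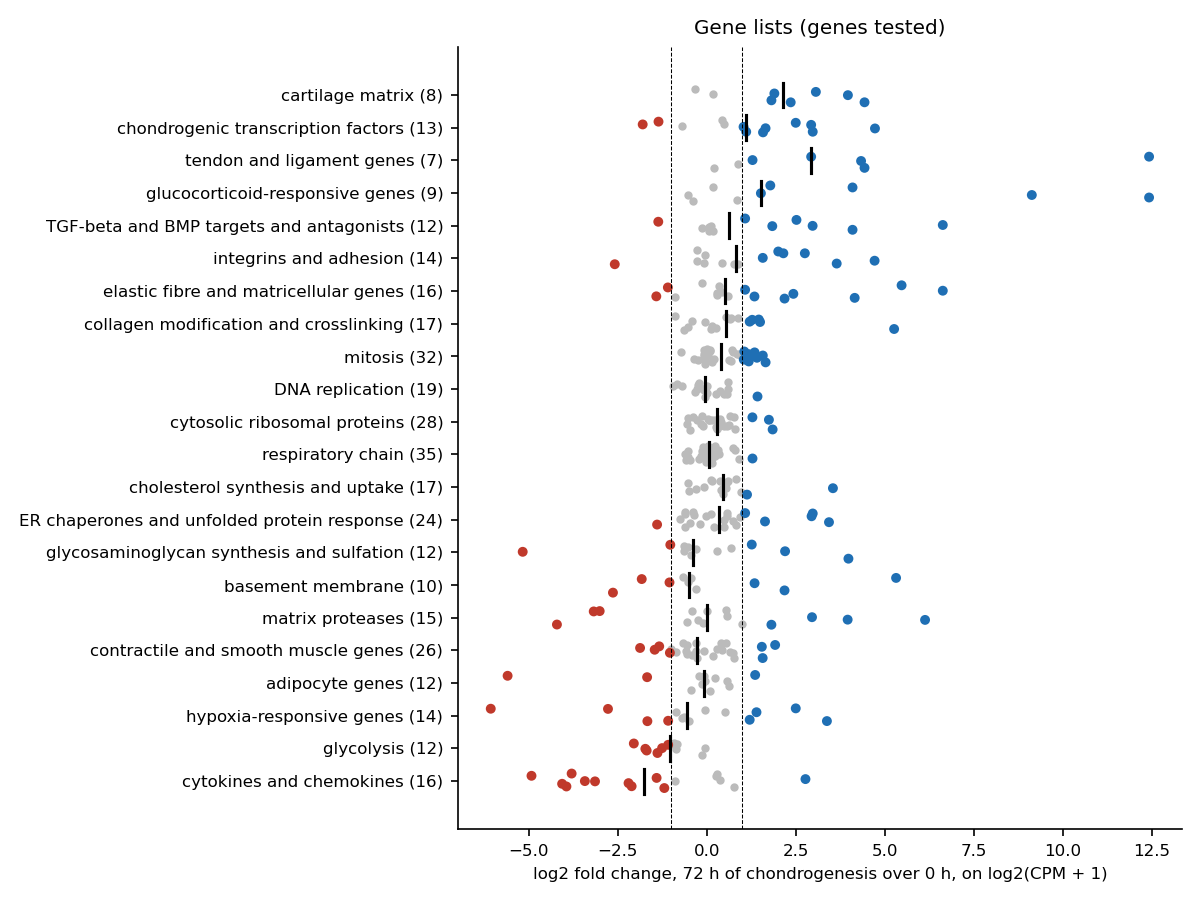
Log2 fold change (72 h of chondrogenesis over 0 h) of the tested members of 22 gene lists, 1 point per gene, with the number tested in brackets. Blue points are higher, red points are lower and grey points did not pass the test, black bars are medians, and dashed lines stand at 1 and -1. The medians of the tendon and cartilage matrix lists lie farthest to the right and that of the cytokines farthest to the left.

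In the remaining matrix the changes went both ways, read against 11.6% higher and 6.37% lower among all tested genes. Of 16 genes of elastic fibres and matricellular proteins, 7 were higher and 2 lower (median 0.52), and 6 and 3 under quantile normalization and after rescaling. Spon1 (F-spondin) measured 40.4, 40.8 and 36.7 CPM and 776, 703 and 668 CPM (4.15 ± 0.13, adjusted p = 1.74e-21). Thbs3, a thrombospondin found in cartilage, measured 101, 104 and 95.4 CPM and 470.3, 464 and 439 CPM (2.18 ± 0.16, adjusted p = 2.92e-12). In both genes each 72 h sample was above each 0 h sample. Smoc2 had 2 to 3 and 21 to 42 reads (ratio 19.3, 8.96 to 49.4), and Spon2 fell from 148 ± 4.60 to 55.0 ± 6.60 CPM. Of 6 fibrillar and fibril-associated collagens tested, Col24a1 (log2 fold change 2.43) and Col5a1 (1.16) were higher, the latter not under quantile normalization (0.99), rescaling (0.97) or thinned reads (0.93). Of 17 genes that modify or crosslink collagen, 5 were higher, namely the galactosyltransferase Colgalt2, with no read at 0 h and 149 to 168 reads at 72 h, Adamts14 (1.49), the prolyl hydroxylase P3h1 (1.46), Sec24d (1.27) and Loxl2 (1.20). Loxl2 was not called without replicate 2 of 0 h (0.987) or after rescaling (0.999). The proteoglycan Lum measured 55.7, 47.9 and 47.3 CPM at 0 h and 8.21, 9.29 and 8.67 CPM at 72 h (-2.40 ± 0.75, adjusted p = 0.0121), a fall that voom did not call (-2.58). Its SE also covers the spread at 72 h of adipogenesis, where Lum measured 1355, 1513 and 27.1 CPM.

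Genes of hyaluronan and of sulfated glycosaminoglycans, the sugar chains of cartilage, were mixed, with 3 of 12 higher and 2 lower (11.6% and 6.37% of all tested genes) although the median lay below 0 (-0.38). Has2, a hyaluronan synthase, measured 18.8, 18.1 and 13 CPM at 0 h and 256, 286 and 279 CPM at 72 h (3.98 ± 0.27, adjusted p = 2.45e-13). Chsy1, which extends chondroitin chains, measured 216, 225 and 252 CPM and 1082, 1060.1 and 1040.4 CPM (2.20 ± 0.11, adjusted p = 3.42e-16). Sulf1, which removes sulfate from heparan sulfate, measured 90.0, 86.5 and 62.5 CPM and 2.56, 1.11 and 0.445 CPM (-5.17 ± 0.27, adjusted p = 6.26e-16). A gene of hyaluronan synthesis was thus higher and Cemip, linked to its breakdown, lower in the same samples. The nucleotide sugar transporter Slc35d1 also rose (1.26).

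Of 10 basement membrane genes 3 were higher and 3 lower, as against 11.6% and 6.37% of all tested genes, and 2 were higher under quantile normalization, where Nid1 (0.55) was not called. Lama5, a laminin chain, measured 868, 878 and 862 CPM at 0 h and 133, 156 and 129.9 CPM at 72 h (-2.64 ± 0.18, adjusted p = 4.22e-13), while Lama1, another alpha chain, measured 4.01, 6.13 and 3.64 CPM and 222, 217 and 213 CPM. The 2 chains therefore moved in opposite directions. Col4a3 had 1 to 3 and 14 to 24 reads (ratio 19.6, 7.96 to 62.5).

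Of 15 matrix proteases tested, 4 were higher and 3 lower (11.6% and 6.37% of all tested genes). Plau, the urokinase gene, measured 1.72, 1.53 and 3.49 CPM and 44.9, 51.5 and 46.7 CPM (3.95 ± 0.33, adjusted p = 3.00e-11), and the aggrecanase Adamts4 measured 53.3, 56.0 and 47.9 CPM and 433, 413 and 390.5 CPM (2.95 ± 0.15, adjusted p = 4.21e-16). Adamts17 and Mmp15 were the others that rose. Adamts8 fell (67 to 85 and 1 to 5 reads) together with Adamts1 and Cemip, which the list holds as a hyaluronan-degrading gene. Of 7 tested genes in the protease inhibitor list, 1 was higher (Serpinf1, held there as a member of the serpin family) and 2 lower (Serping1 and Cst6, -1.44).

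For the TGF-beta and bone morphogenetic protein (BMP) family, ligands, receptors and targets were read apart, against 11.6% higher and 6.37% lower among all tested genes. Of 7 ligands tested, 2 rose and 2 fell. Tgfb1 measured 180.2, 185 and 182 CPM at 0 h and 747, 617 and 605 CPM at 72 h (1.84 ± 0.14, adjusted p = 3.69e-12), Gdf6 had 0 to 5 and 18 to 25 reads, Mstn (myostatin) fell from 18 to 24 reads to none and Bmp3 from 8 to 14 reads to 0 to 2. Both receptors tested fell, of 10 receptor and SMAD genes in the files. Tgfbr3, the co-receptor betaglycan, measured 853, 852 and 885 CPM and 76.4, 66.5 and 79.2 CPM (-3.53 ± 0.10, adjusted p = 7.03e-22), and Acvr2b fell by 1.08 ± 0.34. Of 12 targets and antagonists, 6 rose and 1 fell (median 0.62). Beside Tgfbi these were Tsc22d3, Tsc22d1 (2.97), Klf10 (2.52), the pseudoreceptor Bambi (1.84) and Ctgf (1.07, but 0.97 under quantile normalization and 0.85 after rescaling), whereas the BMP antagonist Chrdl2 fell (ratio 6.47, 2.60 to 20.8, in favour of 0 h). Tsc22d3 is also in the list of glucocorticoid-responsive genes, so its rise is not particular to this pathway.

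Other signalling pathways were read against the 11.6% higher and 6.37% lower of all tested genes. In the hedgehog pathway 2 of 5 genes rose, Gli1 and the co-receptor Cdon (1.21, 0.98 after rescaling). In the Wnt pathway 4 of 19 tested genes rose and 2 fell, with a median of 0.13, and with a pseudocount of 0.1 or voom the calls were 10. Fzd4, a Wnt receptor, measured 316, 278 and 310.3 CPM at 0 h and 34.1, 52.6 and 44.7 CPM at 72 h (-2.77 ± 0.16, adjusted p = 6.47e-15). Lgr5, a receptor that enhances Wnt signals, fell (-1.68), while its relative Lgr6 (0 to 1 and 8 to 14 reads), the Wnt antagonist Nkd1 (1.39), Fzd9 (0 to 3 and 5 to 15 reads) and Ror2 (0 to 2 and 4 to 14 reads) rose. Igfbp5 was the called gene among 5 of the insulin-like growth factor axis, with 3 called when replicate 1 of 72 h was left out. Of 10 genes of the fibroblast growth factor pathway and its feedback, 3 fell, among them the inhibitors Spry2 (-1.79) and Dusp6 (-1.39).

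Of 9 genes known to respond to glucocorticoids, 5 were upregulated (median 1.52), as against 11.6% of all tested genes. Tsc22d3, known as glucocorticoid-induced leucine zipper, measured 31.1, 26.9 and 25.3 CPM at 0 h and 554, 515 and 406 CPM at 72 h (4.09 ± 0.15, adjusted p = 2.80e-19). Mt2A, a metallothionein, measured 342, 316 and 410.0 CPM and 1229, 932 and 915 CPM (1.52 ± 0.13, adjusted p = 5.89e-11), though near-identical metallothionein genes could share its reads. Angptl7, Crispld2 and Mgp were the other 3. The list shares its leading gene, Angptl7, with the tendon list, Tsc22d3 with the TGF-beta and BMP targets, and Mgp with the osteoblast list.

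Genes of the alternative fates were not uniformly lower, read against 11.6% higher and 6.37% lower among all tested genes. Of 9 osteoblast genes 4 were higher (Ibsp, Postn, Mgp and Ankh) and 2 lower (Dlx3 and Tnfrsf11b). Tnfrsf11b, which encodes osteoprotegerin, measured 299.5, 325 and 281 CPM and 23.1, 23.2 and 23.8 CPM (-3.63 ± 0.19, adjusted p = 1.14e-15). Ankh, a pyrophosphate transporter (1.06), lay close to the threshold and was not called without replicate 1 of 0 h (0.997), after rescaling (0.82) or quantile normalization (0.91), or by edgeR and voom (both 0.98). The defining osteoblast markers Sp7, Alpl and Dmp1 were listed at 0 in all 6 samples, and Bglap had at most 3 reads. Of 12 adipocyte genes, the fatty acid synthase Fasn rose (1.36) and Lpl and Dgat2 (-1.68) fell, and the defining adipocyte markers found (Pparg, Plin1 and Cidec) had at most 2 reads in any sample. Of 26 contractile and smooth muscle genes 3 were higher, a share close to that of all tested genes, and 4 lower (median -0.29), for example Tpm2 with 20.5, 26.6 and 31.5 CPM at 0 h and 4.87, 7.96 and 6.45 CPM at 72 h.

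Of 14 integrins and adhesion genes, 6 were higher and 1 lower (median 0.81), as against 11.6% and 6.37% of all tested genes. Itga10, Jam2, Cdh6 and Ncam1 could pass the filter only through groups where they are high, so the count is no support for a change of the list. Itga10, an integrin chain of chondrocytes that binds collagen, had no read at 0 h and 44 to 55 reads at 72 h, at least 25.5-fold higher at a limit of 3 reads per 0 h library. Cdh11, the cadherin of mesenchymal cells, measured 524, 567 and 518 CPM and 2226, 2133 and 2106 CPM (2.01 ± 0.16, adjusted p = 1.57e-11). Jam2, a junctional adhesion molecule, had 0 to 3 and 114 to 134 reads (ratio 197, 66.9 to 959.9). Each of these was higher in all 3 samples of 72 h. Cdh6 had 0 to 2 and 23 to 34 reads, Itgbl1 rose by 2.15 and Ncam1 from 0.142 to 2.38 CPM. Gja1 (connexin 43), which forms gap junctions, measured 936, 888 and 1080.1 CPM and 161, 167 and 152 CPM (-2.58 ± 0.20, adjusted p = 9.20e-12).

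Among 8 stromal surface genes tested, read against 11.6% higher and 6.37% lower of all genes, Thy1 fell while Cspg4 (NG2, 1.49) and Procr (1.39) rose. Of 5 endothelial and pericyte genes tested, Cspg4, which is also in the stromal list, and Flt4 (1.41) rose, as against 11.6% of all tested genes. Of 4 leukocyte genes limma called 0, with 1 at an unadjusted p under 0.05, edgeR called 0 and voom 1. The 1 erythroid gene tested was not called by limma, edgeR or voom, and its unadjusted p was not under 0.05.

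Cytokines and chemokines, which draw and activate immune cells, were mostly downregulated, 10 of 16 tested, as against 6.37% of all tested genes, with a median of -1.76. Cxcl1 measured 2996, 3574 and 3120.0 CPM at 0 h and 209, 231 and 188 CPM at 72 h (-3.94 ± 0.13, adjusted p = 8.22e-21). Ccl2 measured 1428, 1257 and 1429 CPM and 115, 141 and 125 CPM (-3.42 ± 0.34, adjusted p = 1.02e-09), and its neighbour in the family Ccl7 measured 1116, 1129.5 and 1145 CPM and 69.8, 90.0 and 82.9 CPM (-3.80 ± 0.36, adjusted p = 5.79e-10). All 3 chemokines were abundant before induction, and each 72 h sample lay far below each 0 h sample. Il6 measured 43.4, 39.3 and 44.1 CPM and 0.256, 0.884 and 0.222 CPM, a ratio of 90.9 (41.6 to 248) in favour of 0 h. Cxcl6 had 100 to 155 reads at 0 h and 0 to 1 at 72 h, and its log2 fold change was not called by voom (-6.73). Il1a, Csf2 and Cxcl3 fell from means of 8.0, 3.61 and 1.30 CPM to 0 reads, and Cxcl2 and Il1b from 3.92 and 1.87 CPM to 0.148 and 0.0855 CPM. Ctf1 (cardiotrophin) rose from 0.286, 0.279 and 1.06 CPM to 12.3, 10.2 and 6.23 CPM (2.77 ± 0.30, adjusted p = 6.58e-09).

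Neighbouring immune lists changed in both directions, read against 11.6% higher and 6.37% lower among all tested genes. Of 9 complement and acute phase genes, the acute phase protein Orm1 rose from 33.0 ± 2.52 to 262 ± 43.3 CPM (2.94 ± 0.19, adjusted p = 1.12e-13), while Serping1 and C1s fell, C1s not without replicate 1 of 72 h (-0.71) or replicate 2 of 0 h (-0.92). Of 18 interferon and antigen presentation genes 3 were higher and 3 lower, but 2 and 5 under quantile normalization and 2 and 4 after rescaling. Ifi27 measured 111, 94.2 and 94.8 CPM and 12.3, 10.8 and 12.2 CPM (-2.98 ± 0.21, adjusted p = 6.20e-13), Parp14 fell by 1.31 ± 0.11, and the guanylate-binding protein gene Gbp5 had 1 to 8 and 25 to 27 reads.

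The glycolysis genes that passed the test all changed in one direction. Of 12 tested, 6 were downregulated and the other 6 were not called (median -1.03), as against 6.37% of all tested genes downregulated. After rescaling to the listed genes 10 were downregulated. Pgk1, phosphoglycerate kinase, measured 2202, 2068 and 2152 CPM at 0 h and 534, 522 and 493 CPM at 72 h (-2.05 ± 0.16, adjusted p = 3.91e-12). Ldha, lactate dehydrogenase A, measured 2583, 2798 and 2677 CPM and 1183, 1149 and 1043 CPM (-1.26 ± 0.14, adjusted p = 2.14e-08). Pdk1, a kinase that inhibits pyruvate dehydrogenase, measured 257, 278 and 253 CPM and 111, 127 and 133 CPM (-1.09 ± 0.10, adjusted p = 5.78e-10). All 3 samples of 72 h were below all 3 of 0 h in these genes. Pkm (-1.73), Aldoa (-1.69) and the lactate exporter Slc16a3 (9 to 17 reads at 0 h and 0 to 1 at 72 h) fell from lower levels. Of 14 hypoxia-responsive genes, 4 were lower (Egln3, Bnip3, Fam162a and Pdk1) and 4 higher (Bhlhe41, Epas1, Bhlhe40 and Loxl2), as against 6.37% and 11.6% of all tested genes, and after rescaling 5 and 3. Bnip3, a mitochondrial protein of autophagy, measured 347, 342 and 344 CPM and 46.9, 54.2 and 47.6 CPM (-2.77 ± 0.12, adjusted p = 1.71e-17), and Bhlhe41, a repressor of the circadian clock, measured 6.88, 4.74 and 4.85 CPM and 90.0, 53.9 and 57.6 CPM (3.37 ± 0.28, adjusted p = 2.46e-11).

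Since genes of these 2 lists are known targets of hypoxia-inducible factors, which are known to bind the letters ACGTG, RefSeq promoter windows of rat assembly GRCr8 (250 bases before to 50 bases after the start) were searched for ACGTG on both strands. The motif was found in 19.3% of all 33469 windows and in 769 of the 3058 tested genes with a single window. Of the 9 downregulated members, 7 had a single window and 4 of these held the motif (Ldha, Pdk1, Bnip3 and Fam162a), and Egln3, Pkm and Slc16a3 did not. It was also in 8 of 9 members that were not called and in 2 of 3 that were higher, so these letters did not separate the members that fell. The windows of 3 downregulated genes are shown in the direction of transcription, with the motif on either strand in capitals. In Ldha and Bnip3 the run CACGTG reads the same on both strands and counts as 2 overlapping matches.
Ldha, chr1:106507842-106508141, plus strand: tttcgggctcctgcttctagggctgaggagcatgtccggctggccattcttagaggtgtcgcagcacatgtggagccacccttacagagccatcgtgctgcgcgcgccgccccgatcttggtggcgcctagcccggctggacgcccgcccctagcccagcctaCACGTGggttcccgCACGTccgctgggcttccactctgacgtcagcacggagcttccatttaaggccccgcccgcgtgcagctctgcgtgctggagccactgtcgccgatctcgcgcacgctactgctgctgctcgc
Pdk1, chr3:77113264-77113563, plus strand: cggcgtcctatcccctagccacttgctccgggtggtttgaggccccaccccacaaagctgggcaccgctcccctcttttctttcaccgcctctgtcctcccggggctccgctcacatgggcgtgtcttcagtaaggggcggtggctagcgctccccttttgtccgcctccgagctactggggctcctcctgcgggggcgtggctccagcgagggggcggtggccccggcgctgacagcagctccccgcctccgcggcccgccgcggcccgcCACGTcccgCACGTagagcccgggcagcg
Bnip3, chr1:203154913-203155212, minus strand: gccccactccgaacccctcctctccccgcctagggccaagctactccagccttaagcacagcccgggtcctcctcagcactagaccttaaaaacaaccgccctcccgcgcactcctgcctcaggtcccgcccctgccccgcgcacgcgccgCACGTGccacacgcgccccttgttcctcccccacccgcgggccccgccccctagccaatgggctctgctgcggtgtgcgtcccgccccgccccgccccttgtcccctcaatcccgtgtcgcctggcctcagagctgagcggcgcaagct

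Genes of oxidative defence split, with 6 of 16 higher and 4 lower (11.6% and 6.37% of all tested genes), but 4 and 4 under quantile normalization and 4 and 5 after rescaling. Txnip, which inhibits thioredoxin, measured 69.3, 78.1 and 75.7 CPM at 0 h and 528, 504 and 481 CPM at 72 h (2.75 ± 0.16, adjusted p = 7.23e-15). Gclm, a subunit of the enzyme that starts glutathione synthesis, measured 188, 201 and 179.8 CPM and 21.8, 20.6 and 24.2 CPM (-3.04 ± 0.11, adjusted p = 9.27e-20), and Nqo1, a quinone reductase, measured 341, 346 and 356 CPM and 124, 107 and 103 CPM (-1.64 ± 0.09, adjusted p = 4.56e-15). Gpx7 (1.81) rose with Txnip, while Prdx6 (-1.05, -0.99 and not called without replicate 3 of 0 h) and Gsta1, from 7 to 41 reads to none, fell with Gclm and Nqo1. Of 24 ER genes 5 were higher and 1 lower (Sdf2l1, -1.40), and Sec61b was not among the higher ones under quantile normalization (0.88) or after rescaling (0.84). Those that rose included Chac1, a target of the amino acid stress response, with 25.9, 23.1 and 27.6 CPM and 204, 201 and 202 CPM (2.94 ± 0.18, adjusted p = 2.26e-14), and Phgdh, the first enzyme of serine synthesis, with 7.59, 10.4 and 7.89 CPM and 111, 93.5 and 103 CPM (3.43 ± 0.17, adjusted p = 1.32e-16). Sesn2, induced by several stresses, rose as well (1.63).

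Other housekeeping lists had calls in the upward direction, at a share close to or under the 11.6% of all tested genes. Of 28 ribosomal protein genes 3 were higher (Rpl36a, Rps27a and Rpl27a, median of the list 0.27), and in each of these replicate 1 of 72 h was the highest, for example Rpl36a with 171, 64.1 and 78.7 CPM. Such genes have many near-identical copies, so their counts are uncertain. Of 35 respiratory chain genes 1 was higher (Ndufb4, 1.28), of 24 lysosome genes 2, and of 17 cholesterol genes 2. The medians of the respiratory chain and lysosome lists were above 0 here (0.05 and 0.11) and below 0 after rescaling (-0.14 and -0.11).

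The mitosis list had calls in the upward direction only, with 9 of 32 tested genes higher and the other 23 not called, as against 11.6% of all tested genes. Birc5 (survivin), a protein of the dividing chromosomes, measured 14.3, 21.9 and 12.7 CPM at 0 h and 64.6, 48.9 and 44.5 CPM at 72 h (1.65 ± 0.19, adjusted p = 2.14e-08). Nuf2, a kinetochore protein, measured 47.3, 42.8 and 35.9 CPM and 115, 104 and 103 CPM (1.34 ± 0.21, adjusted p = 3.73e-06). Hmmr, a spindle protein, measured 33.5, 31.9 and 31.5 CPM and 94.1, 86.7 and 81.6 CPM (1.41 ± 0.24, adjusted p = 1.53e-05). The groups did not overlap in these genes. The centromere histone Cenpa (log2 fold change 1.22), Hmgb2 (1 to 6 and 12 to 16 reads), Cdca3 (1.18), Ckap2 (1.18), Kif20a (1.04, but 0.86 under quantile normalization and 0.80 after rescaling) and Smc4, with no read at 0 h, were the others, and 7 to 10 genes were called when 1 library was left out. Of 19 DNA replication genes, Rpa3 was higher (1.40), and the median was -0.06, while Mcm6 and Cdt1 were also called, as lower, under quantile normalization (-1.13 and -1.08) and after rescaling (-1.17 and -1.05). Among 8 cell cycle inhibitors and p53 targets, read against 11.6% higher and 6.37% lower of all genes, Sesn2 and Plk2 (1.28) rose and Gadd45a fell (-1.28, not called without replicate 2 of 72 h at -0.88).

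**Figure D4:**
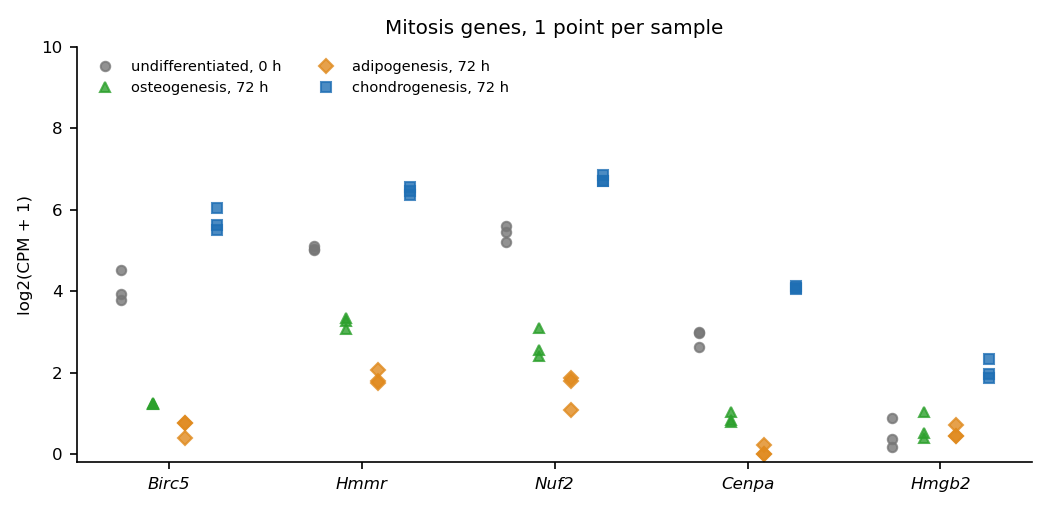
Levels of the 5 mitosis genes with the largest rises, as log2(CPM + 1) on the vertical axis, with 1 point per sample at 0 h (grey), and at 72 h of osteogenesis (green), adipogenesis (orange) and chondrogenesis (blue). For Birc5, Hmmr, Nuf2 and Cenpa the chondrogenesis samples lie above those of 0 h, and the osteogenesis and adipogenesis samples below them.

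Of 17 homeobox genes tested 4 were lower and 1 higher (Gbx2), as against 6.37% and 11.6% of all tested genes, and after rescaling 5 were lower and 0 higher. Gsc, the goosecoid TF, measured 12, 16.3 and 14.1 CPM at 0 h and 4.62, 3.76 and 2.45 CPM at 72 h (-1.74 ± 0.27, adjusted p = 4.52e-06), and Tshz2 fell by 1.42 ± 0.32. A table of the study names 38 TFs for 72 h of chondrogenesis, and its running text counts them slightly differently, which was not resolved here. All 38 of the table were in the files and 36 were tested, of which 24 were higher, 11 lower and 1 not called (Ahrr, -1.02), a list the study chose on these samples and so no independent evidence. Beyond those named above, Snai2, a repressor of epithelial genes, measured 7.59, 5.85 and 7.89 CPM and 99.0, 74.7 and 78.5 CPM (3.39 ± 0.28, adjusted p = 2.59e-11), Foxd2 rose by 1.98, Tfcp2l1 by 2.22 and Mlxip by 1.44, and Terf1, which caps telomeres, fell by 1.83 ± 0.18.

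The course within chondrogenic medium was read from the 3, 12 and 72 h samples, and 72 h was tested against 12 h without the 0 h samples. That comparison gave 576 DEGs (13.2%), 348 (7.98%) higher and 228 (5.23%) lower at 72 h, a split of 431 and 149 with median-ratio scaling. Sox9 was already at 603 ± 36.8 CPM at 3 h and 638 ± 77.4 CPM at 12 h, and rose by another 1.02 ± 0.14 to 72 h (adjusted p = 1.15e-06). Scx stood at 15.1 ± 0.495 CPM at 3 h and 18.8 ± 1.12 CPM at 12 h, and its step to 72 h was 0.45, under the threshold. Comp was at 0.0481 ± 0.0834 CPM at 12 h and rose by 4.43 ± 0.23 to 72 h, and Col9a2 was at 1.82 ± 0.903 CPM and rose by 3.65 ± 0.34.

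Other rises were early or late. Crispld2 reached 396 ± 20.2 CPM at 3 h, Chsy1 1324 ± 88.3 CPM, and Creb3l1 1967 ± 367 CPM at 12 h, with steps from 12 to 72 h of 1.45, -0.39 and 0.14, of which that of Crispld2 passed the test. Dclk3 (6.35), Adamts17 (5.79), Sbsn (5.63), Lrrc17 (4.87) and Spon1 (3.45) had most of their rise after 12 h. Mgp was at 273 ± 14.2 CPM at 3 h and 194 ± 16.1 CPM at 12 h, both below 0 h, before the high level of 72 h. Chac1 likewise was at 10.9 ± 0.0355 CPM at 12 h, below its 0 h level, and at 202 ± 1.80 CPM at 72 h. Among the falls, Il6 (0.753 ± 0.626 CPM), Cemip (2094 ± 91.2 CPM) and Egln3 (7.31 ± 1.56 CPM) had dropped by 3 h, and their steps from 12 to 72 h were under the threshold. Il1rl1 (-5.14), Ccl2 (-3.10), S100a4 (-2.70) and Nqo1 (-1.43) fell mainly after 12 h. Of the mitosis genes 22 of 32 were above 0 h at 3 h, 2 at 12 h and 9 at 72 h. Of all tested genes, limma called 18.0% at 3 h, where 13.1% were higher and 4.88% lower. For 12 h the share was 14.4%, with 9.44% above 0 h and 5.0% below it.

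**Figure D5:**
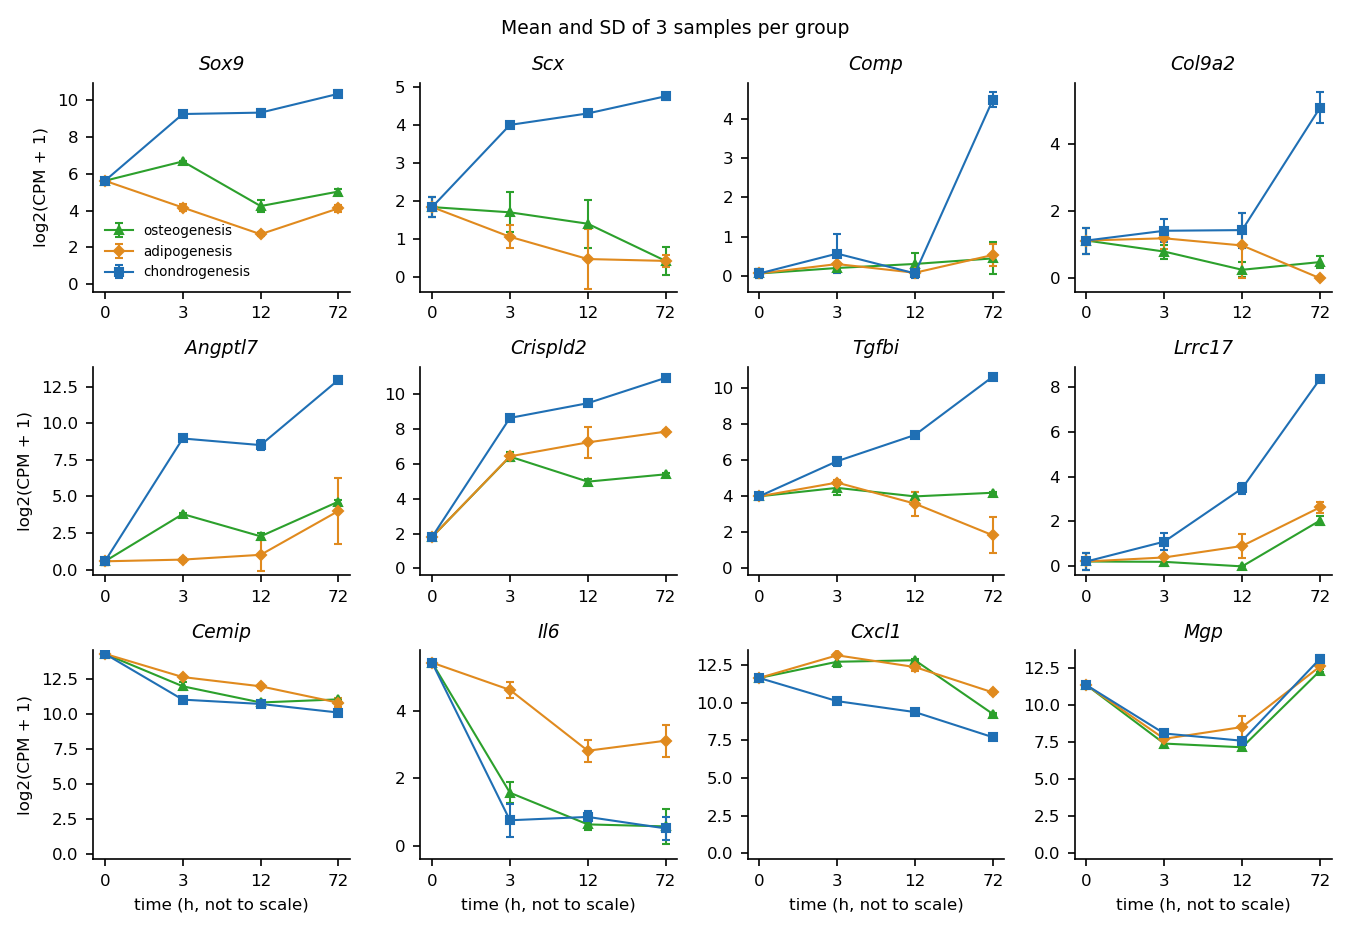
Mean level of 12 genes as log2(CPM + 1) on the vertical axes against time after induction on an uneven horizontal axis, with bars for the SD of 3 samples, for chondrogenesis (blue), osteogenesis (green) and adipogenesis (orange), which share the samples at 0 h. Sox9 and Scx rise by 3 h in chondrogenesis, Comp and Col9a2 between 12 and 72 h, and Mgp falls and then rises in all 3 lineages.

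To see which differences at 72 h went with the chondrogenic medium, those samples were tested directly against 72 h of osteogenesis and of adipogenesis. There were 856 DEGs (19.6%) against osteogenesis, 483 (11.1%) higher and 373 (8.55%) lower in chondrogenesis, and 1113 (25.5%) against adipogenesis, 720 (16.5%) higher and 393 (9.01%) lower. Replicate 3 of 72 h of adipogenesis stood apart with 38.9% of its reads in listed genes as against 47.9 and 49.0% in the other samples, and without it 1081 genes differed, 664 higher and 417 lower. The counts of mitosis, DNA replication and cytokine genes given below against adipogenesis were the same without that sample. The split against adipogenesis also moved with scaling, to 631 and 577 with median-ratio scaling, 569 and 494 with quantile normalization, 691 and 637 with edgeR, and 500 and 742 after rescaling. Against osteogenesis it was 428 higher and 451 lower after rescaling.

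Sox9 was at 31.8 ± 3.34 CPM in osteogenesis and 16.5 ± 2.22 CPM in adipogenesis at 72 h, so the chondrogenesis samples were higher by 5.30 ± 0.14 (adjusted p = 1.02e-22) and 6.22 ± 0.14 (adjusted p = 1.13e-24). Scx was higher by 4.35 against each. Tgfbi, Lama1, Angptl7 and Ibsp also separated the media. Tgfbi was at 17.1 ± 0.709 CPM in osteogenesis and 3.05 ± 2.27 CPM in adipogenesis, Lama1 at 0.0502 ± 0.087 and 0.856 ± 0.184 CPM, Angptl7 at 24.1 ± 2.47 and 26.4 ± 22.6 CPM, and Ibsp at 2.80 ± 1.20 and 1.46 ± 0.871 CPM. Igfbp5 was higher in chondrogenesis by 9.33 than in osteogenesis and by 2.89 than in adipogenesis, where its 3 samples measured 14952, 14956 and 380.5 CPM. Without the low sample the latter difference was 1.13. The difference from adipogenesis then also went from 8.97 to 7.70 for Angptl7 and from 3.58 to 2.19 for Itgbl1.

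For 3 other genes that rose in chondrogenesis, Tsc22d3, Mgp and Epas1, the differences between media were under the threshold. Tsc22d3 was at 716 ± 102 CPM in osteogenesis and 406 ± 72.5 CPM in adipogenesis, and chondrogenesis differed from them by -0.54 and 0.28. Mgp differed by 0.81 and 0.52 and Epas1 by 0.85 and 0.47. Spon1 was above 0 h in each medium and highest in adipogenesis, at 1209.9 ± 41.6 CPM in osteogenesis and 2389.7 ± 417 CPM in adipogenesis, and chondrogenesis was lower than adipogenesis by a tested difference of -1.73 ± 0.13. Against the same 0 h samples, osteogenesis at 72 h had 12.5% of all genes called (7.2% higher and 5.29% lower) and adipogenesis 15.3% (6.19% higher and 9.08% lower). The cytokine list had 10 of 16 genes below and 1 above 0 h in osteogenesis, and 6 below and 4 above it in adipogenesis. Chondrogenesis was directly lower than adipogenesis in 7 of them (9.01% of all genes were) and lower than osteogenesis in 2 (8.55% of all genes) and higher in 1. Glycolysis genes were below 0 h in 5 of 12 in osteogenesis and 7 in adipogenesis, where 1 was above it.

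Between media, the mitosis genes that passed the test all differed in one direction. Of 32 tested, 14 were higher in chondrogenesis than in osteogenesis (11.1% of all genes were) and 15 were higher than in adipogenesis (16.5% of all genes) at 72 h, and none of the other members passed the test in the opposite direction. Against the 0 h samples that the media share, the called genes of the list were 11 lower ones in osteogenesis, 13 lower ones in adipogenesis and 9 higher ones in chondrogenesis. Of all tested genes, 5.29% were lower in osteogenesis, 9.08% lower in adipogenesis and 11.6% higher in chondrogenesis. Birc5 was at 1.37 ± 0.0324 CPM in osteogenesis and 0.579 ± 0.227 CPM in adipogenesis, and chondrogenesis exceeded them by 4.48 ± 0.19 (adjusted p = 4.32e-18) and 5.08 ± 0.19 (adjusted p = 1.38e-19). Of 19 DNA replication genes 5 were higher in chondrogenesis than in osteogenesis and 6 than in adipogenesis, as against the same 11.1% and 16.5%. Tgfbr3 and Lpl were far lower than in both other media, with differences for Tgfbr3 of -5.83 and -6.18, and for Lpl of -6.21 and -6.86. For Thy1 the difference from osteogenesis was under the threshold (-0.64), and chondrogenesis was higher than adipogenesis by 2.48.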

How the data were processed

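Per the labels, RNA of 30 samples was sequenced on an Illumina NovaSeq, and the submitters' processing notes name Trimmomatic, HISAT2 and StringTie without versions. The genome build was not given in the sources used here. The labels describe ribosomal RNA removal and strand marking and the study's methods describe an mRNA kit, so the strand setting of the counts is uncertain. The deposited values are CPM, computed by the authors from all reads of a sample, although the files are named for FPKM. All values were whole multiples of 1 read (100% within 0.01 reads), from which totals of 3899609 to 9046719 reads were recovered.

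The 10803 rows were summed over 729 shared names to 9999 names, of which 8356 matched RefSeq symbols. The filter of 1 CPM in 3 samples left 4363 genes, whose log2(CPM + 1) values in all 30 samples were fitted by group with limma 3.58.1 (R 4.3.3), and p-values were adjusted by the Benjamini-Hochberg method over all of them. Folds against a group with no read were bounded with 3 reads per library, and ratios resting on under 10 reads carry exact 95% counting intervals. On simulated data for 72 h of chondrogenesis against 0 h, limma recovered 134 of 180 changed genes among 3770 tested, and all 82 of those with a mean of at least 10 CPM, with 1 false call among 3590. The simulation gave all genes the same dispersion, left the other groups unchanged and used only changes above the threshold. Its rates therefore need not hold for these data. Alternatives were another pseudocount, no filter, other scalings, the 6 samples alone, a replicate block, edgeR 4.0.16 and voom on recovered reads, reads thinned to the lowest total, shared names tested apart, and each sample left out. Same-numbered samples of both groups did not deviate together (correlations 0.01, -0.02 and -0.02), and replicate pairs of a group correlated at 0.989 to 0.993 on the log2 scale.

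The genes named were the 15 largest rises and falls among DEGs whose groups did not overlap, and the 10 most abundant DEGs in each direction. Others were the leading members of 42 gene lists, the study's TFs, and list members chosen after their values were seen. The comparison and the lists were chosen with earlier results of these data known. Promoter sequences came from RefSeq (GRCr8). A few genes are not reported here.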

Additional observations from a re-analysis of the deposited data

Results flagged for a closer look

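The genes below had changed in opposite directions against 0 h at 72 h in chondrogenesis and in another medium, or at 72 h and 12 h within chondrogenesis, and the direct difference between those groups passed the test in limma. The values are that direct log2 difference, and negative values mean that chondrogenesis at 72 h was lower. Since the comparisons share the 0 h samples, the opposite directions are not independent of each other. All 34 differences listed here from adipogenesis also passed the test without replicate 3 of that group, which stood apart, though without it the differences of Lum (-7.20), Cxcl6 (-8.13) and Itgbl1 (2.19) moved by over 1.5 times as folds. The changes from 0 h to adipogenesis were not refitted without that sample. For Itgbl1 the other adipogenesis samples (163 and 160 CPM) were near the 0 h mean of 166 CPM, so its opposite direction rests on that sample. Falls were smaller in the other samples for Nid1 (2222 and 2129 against 3791 CPM at 0 h) and Sec61b (48.3 and 47.7 against 90.5 CPM). Differences from groups near 0 CPM are understated on the log2(CPM + 1) scale.

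Against adipogenesis at 72 h, genes of the matrix and its modification differed by 8.78 (Tgfbi), 6.88 (Lama1), 5.09 (Col9a2), 3.57 (Col24a1), 2.40 (Nid1) and -5.31 (Lum). Genes of signalling and its receptors differed by 3.38 (Tgfb1), -6.18 (Tgfbr3), -3.82 (Fzd4), 3.09 (Ptgfrn) and -6.45 (Cxcl6). TFs differed by 6.22 (Sox9), 4.35 (Scx), 3.12 (Bhlhe40), -2.69 (Nfia) and -3.82 (Ehf), and Rab24, which the study lists among its TFs, by 2.80. Mitosis genes differed by 5.08 (Birc5), 4.59 (Hmmr), 5.17 (Nuf2) and 4.01 (Cenpa). Genes of lipid metabolism differed by -6.86 (Lpl) and -3.09 (Dgat2). Genes of oxidative defence differed by -3.87 (Gsta1), -3.16 (Nqo1) and -2.53 (Prdx6), and complement genes by -3.65 (Serping1) and -3.08 (C1s). The remaining genes were Enpp3 (-5.38), Hspb7 (2.74), Ankh (2.91), Itgbl1 (3.58), Cspg4 (4.11) and Sec61b (2.19).

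Against osteogenesis at 72 h, Lama1 (7.70), Col24a1 (3.49) and Scx (4.35) were higher in chondrogenesis, and Bmp3 (-2.28), Tgfbr3 (-5.83), Dlx3 (-4.28), Nfia (-2.48) and Dgat2 (-3.51) were lower. The mitosis genes Birc5 (4.48), Hmmr (3.23), Nuf2 (4.06) and Cenpa (3.20) and also Rab24 (2.43) were higher, and Nqo1 (-2.95) and Prdx6 (-2.26) were lower. Within chondrogenesis, Mgp (5.55), Col24a1 (3.67) and Chac1 (4.09) were below 0 h at 12 h and above it at 72 h.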

How the results depend on the processing

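The 785 DEGs between 72 h of chondrogenesis and 0 h became 1039 with a pseudocount of 0.1 (596 higher and 443 lower, the latter over 1.5 times the 278 of the reported setting), 942 with edgeR, 961 with voom and 781 to 819 under the other settings that kept all samples. When 1 sample was left out the count lay between 778 and 832, with 505 to 537 higher and 271 to 301 lower. Leaving out 1 sample gave 576 to 615 DEGs against 12 h of chondrogenesis, 848 to 886 against 72 h of osteogenesis and 1065 to 1186 against 72 h of adipogenesis. Of the reported calls, 708 remained when samples were rescaled to the listed genes, the fewest of any alternative that kept all samples. Of 197 named genes called, 156 were called in all 17 alternatives and none changed direction. Another 12, whose names cover several rows and so have no single value when shared names are tested apart, were called in the other 16. Same-numbered samples did not deviate together, and with a replicate block 786 genes were called, 508 higher and 278 lower. By list, rescaling raised the glycolysis genes called from 6 to 10 and turned the medians of the hedgehog (0.08 to -0.08), respiratory chain and lysosome lists below 0, and the cause was not tested. Depth limits the folds of the 147 upregulated genes with at most 3 reads in every 0 h sample, and of the 73 downregulated genes with at most 3 reads in every 72 h sample, since these rest on few reads.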
